A study of Saccharomyces cerevisiae with 18 samples.

Results

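The 43 genes described here build peroxisomes or serve the breakdown of fatty acids inside them in baker's yeast, Saccharomyces cerevisiae. They are 25 PEX genes and 18 genes for enzymes, transporters and transcription factors, taken by name. A gene was a member if it had an S. cerevisiae probe set that reads a single gene and a symbol of PEX with a number, or was POX1, FOX2, POT1, FAA1, FAA2, PXA1, PXA2, ECI1, DCI1, SPS19, TES1, CAT2, MDH3, IDP3, OAF1, PIP2, ANT1 or CTA1. The members are 43 of 5449 genes read by such probe sets, each with 1 probe set, and all 43 passed the filter on dim genes that 5363 of the 5449 passed.

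RNA was measured on 18 Affymetrix arrays, 1 for each sample of total RNA from whole cultures. The study compared 3 strains that the labels call ethanol tolerant: a haploid labelled Mat alpha, a haploid labelled Mat a, and a diploid. Each strain was grown in fermentors in YPD, a rich medium of yeast extract and peptone with 100 g/L glucose, to which 0%, 3% or 7% ethanol by volume was added. Cells were harvested in mid-exponential growth, 2 samples for each of the 9 combinations of strain and ethanol level. No strain name or genotype is given beyond these labels, and they do not say whether the 2 samples of a group were separate cultures. The p-values below therefore measure only the spread between these samples, which may be technical.

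Peroxisomes are the site of fatty acid beta-oxidation in yeast. Their matrix proteins are made in the cytosol and carried in by receptors that recognise targeting signals, dock at the membrane, release their cargo and are pulled back out by a ubiquitin-dependent machinery, all of it built from PEX proteins. In S. cerevisiae many of the enzyme genes are known to be repressed by glucose and induced by oleate through the paired factors Oaf1 and Pip2 together with Adr1.

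Values are the deposited intensities multiplied by 1 factor for each array, called scaled signal below, and levels are compared only between arrays for the same gene, never between genes. A change is a difference in log2(scaled signal + 16) with its SE from a limma fit to all 18 arrays. Because of the 16, it understates the change of dim genes. The words rose, fell, higher and lower mark an adjusted p under 0.05, by limma with Benjamini-Hochberg adjustment over 5363 genes, two-sided. Over all genes, arrays of the same group differed with an SD of 0.116 to 0.158 in log2 between the 2, and the number of arrays limits the precision. Summed signal of 5 alpha-cell markers was 11203 to 14178 on the arrays labelled alpha, 8077 to 12719 on those labelled a and 129 to 163 in the diploid. For 7 a-cell markers the sums were 89.03 to 111, 113 to 145 and 85.6 to 110.4, and for 7 haploid markers 2108 to 2439, 1909.8 to 2830.3 and 70.5 to 129. The a-labelled haploid thus carried the marker transcripts of an alpha cell, and it is called the a-labelled haploid throughout.

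At 7% ethanol, scaled signal was higher for the acyl-CoA synthetase FAA1, the oxidase POX1, the carnitine acetyltransferase CAT2 and the receptor-recycling gene PEX4. It was lower for the adenine nucleotide carrier ANT1, the import genes PEX2, PEX5 and PEX21, the proliferation factor PEX11 and the transcription factor PIP2. At 7% against 0%, with the 3 strains averaged, 17 of 43 members (39.5%) rose and 16 (37.2%) fell, against 48.3% and 22.3% of all genes tested. The members' median change was -0.025 and that of all genes 0.13. Changes of at least 2-fold were found in 1 member upward and 3 downward, namely FAA1, and ANT1, PEX21 and PEX2, and in 9.14% of all genes. With a pseudocount of 1 the counts were 4 and 4, with POX1, PEX4, CAT2 and FAA2 added, against 13% of all genes. Quantile normalization gave 1 and 6, median centring 1 and 5, and unscaled arrays 1 and 4. The shares of all genes were then 7.53%, 8.33% and 8.47%. In RNA from whole cultures, fewer cells expressing a gene and less RNA per cell cannot be told apart. Arrays were scaled to a common mean, so a change is relative to the other genes and gives no amount per cell.

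The falls were called under every scaling tried, and part of the rises were not. The 3 other scalings all lowered the median change of all genes, which was 0.13 as scaled here. It was -0.00045 with quantile normalization, -0.059 with median centring and 0.039 without scaling. Such a downward shift favours keeping falls and losing rises, so the kept falls are not independent support. All 16 falls remained called in the same direction with quantile normalization, with median centring and without scaling. Of the 17 rises, 8 remained called under all 3 of these, in FAA1, POX1, CAT2, DCI1, PEX4, PEX18, PEX19 and PEX22. The other 9 were PXA1, POT1, ECI1, SPS19, IDP3, PEX3, PEX6, PEX7 and PEX34, and with quantile normalization their changes lay between -0.095 in PEX3 and 0.18 in PEX34. With quantile normalization 9 members rose and 23 fell, against 34.8% and 34.4% of all genes. Median centring gave 10 and 23, against 30.7% and 40.4%, and unscaled arrays gave 12 and 18, against 34.8% and 25.5%. The fit without the a-labelled haploid lost the calls of PEX34, PEX7, PEX3, POT1, ECI1, SPS19 and PXA1, that without the alpha-labelled haploid lost PEX10, PEX28, POT1, TES1 and PEX30, and that without the diploid lost PEX10, PEX28, POT1 and PEX30.

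**Figure D1:**
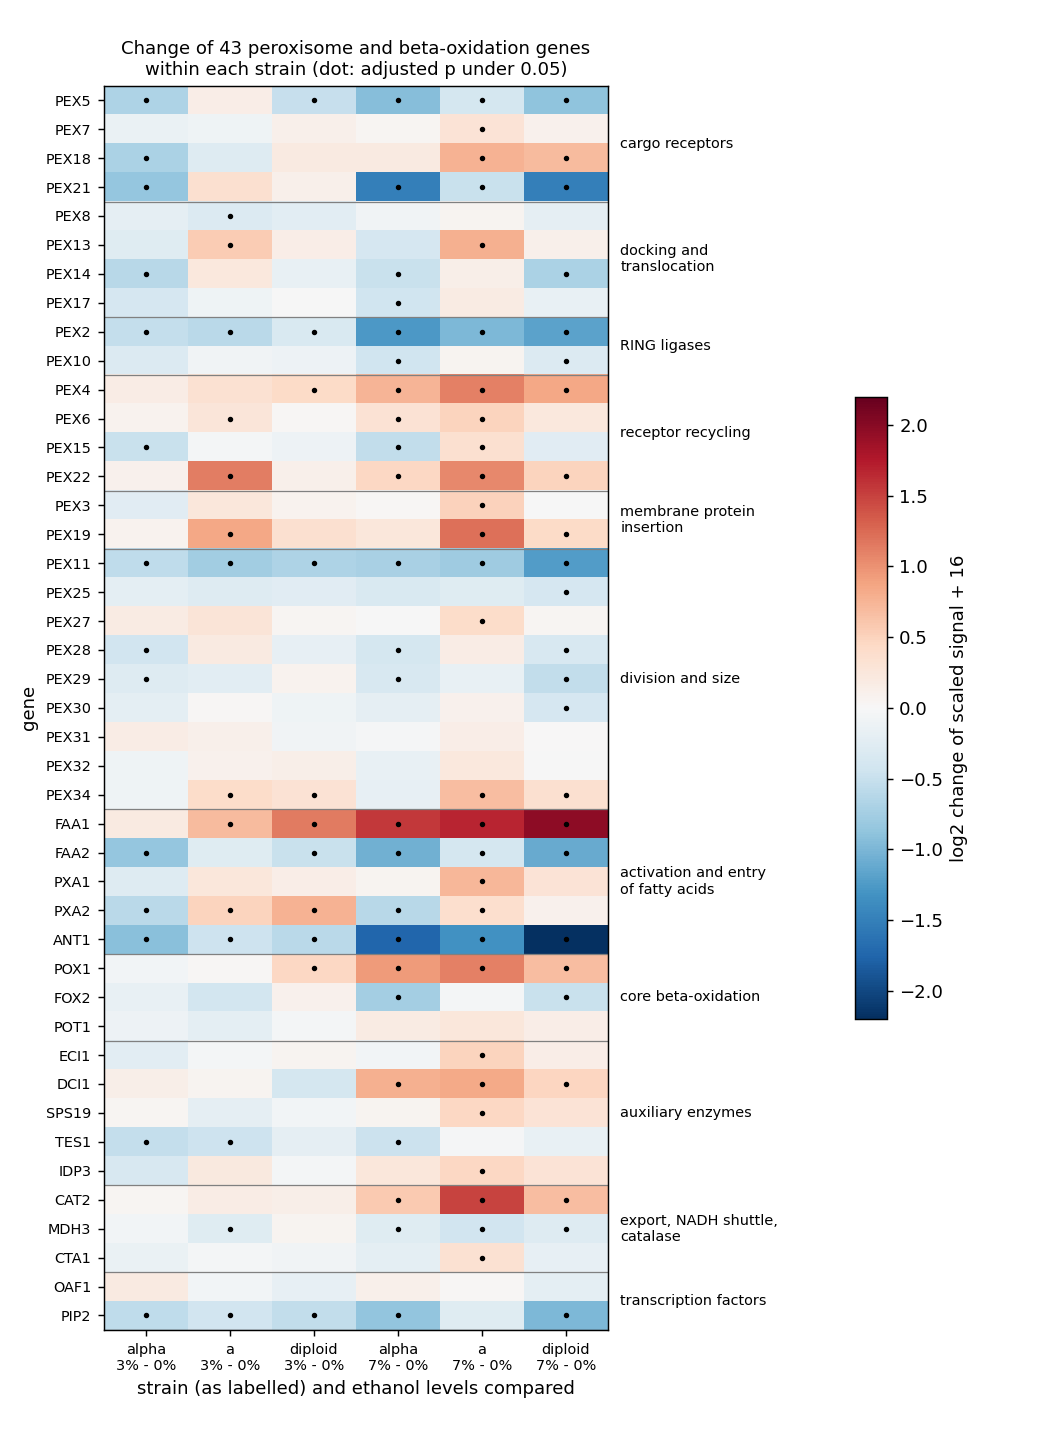
Log2 change of scaled signal + 16 at 3% and 7% ethanol against 0% for each of the 43 members (rows, grouped by role) in each strain (columns). Red is higher and blue lower with ethanol, and a dot marks an adjusted p under 0.05. FAA1 is red and dotted at 7% in all 3 strains, and ANT1, PEX2 and PEX11 are blue and dotted in all 6 columns.

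Of the 5 genes that activate fatty acids or bring substrates into the peroxisome, 2 rose and 2 fell at 7% ethanol, the rise of PXA1 not with quantile normalization. For this and each later count by role at 7%, the shares of all genes were 48.3% up and 22.3% down. Both acyl-CoA synthetases of the set changed, in opposite directions. FAA1 (YOR317W) encodes the main long-chain acyl-CoA synthetase, which activates fatty acids taken up by the cell. FAA1 at 0% ethanol read 46.95 and 69.1 in the alpha-labelled haploid, 95.7 and 90.7 in the a-labelled haploid and 62.9 and 57.6 in the diploid. FAA1 at 3% ethanol read 70.2 and 65.1 in the alpha-labelled haploid, 162 and 162 in the a-labelled haploid and 157 and 147 in the diploid. FAA1 at 7% ethanol read 210.4 and 189 in the alpha-labelled haploid, 347 and 316 in the a-labelled haploid and 304 and 259 in the diploid. Every array at 7% lay above every array at 0% and at 3%. FAA1 rose by 1.73 ± 0.073 (adjusted p = 1.95e-14), or 3.31-fold, as the mean of the strains. It rose by 1.56, 1.67 and 1.96 in the alpha-labelled haploid, the a-labelled one and the diploid.

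FAA2 (YER015W) encodes the peroxisomal synthetase that activates medium-chain fatty acids. FAA2 at 0% ethanol read 40.8 and 43.5 in the alpha-labelled haploid, 33.7 and 33.7 in the a-labelled haploid and 40.9 and 40.99 in the diploid. FAA2 at 3% ethanol read 15.01 and 17.3 in the alpha-labelled haploid, 27.9 and 23.2 in the a-labelled haploid and 26.3 and 22.5 in the diploid. FAA2 at 7% ethanol read 11.5 and 12.6 in the alpha-labelled haploid, 22.2 and 21.5 in the a-labelled haploid and 11.4 and 9.30 in the diploid. The arrays at 0% lay above all arrays at 3% and 7%, which overlapped each other. FAA2 fell by 0.85 ± 0.066 (adjusted p = 3.57e-10) at 7% against 0%. It is dim, and with a pseudocount of 1 in place of 16 the change was -1.41.

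ANT1 (YPR128C) encodes the carrier that brings ATP into the peroxisome, where Faa2 uses it. ANT1 at 0% ethanol read 498 and 459 in the alpha-labelled haploid, 336 and 421 in the a-labelled haploid and 570.3 and 579 in the diploid. ANT1 at 3% ethanol read 256 and 234 in the alpha-labelled haploid, 271 and 271 in the a-labelled haploid and 396 and 357 in the diploid. ANT1 at 7% ethanol read 128 and 135 in the alpha-labelled haploid, 140.4 and 138 in the a-labelled haploid and 112 and 113 in the diploid. Within each strain the signal stepped down from 0% to 3% and from 3% to 7% without overlap. ANT1 fell by 1.76 ± 0.059 (adjusted p = 4.48e-16) at 7% against 0%, 3.39-fold lower, the largest fall among the 43 members. At 3% it fell by 0.65 ± 0.059 (adjusted p = 2.68e-08).

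PXA1 (YPL147W) and PXA2 (YKL188C) encode the 2 subunits of the transporter that carries long-chain acyl-CoA into the peroxisome. PXA2 in the alpha-labelled haploid read 26.6 and 39.02 at 0% ethanol, 15.9 and 16.4 at 3% and 16.9 and 14.3 at 7%. PXA2 in the a-labelled haploid read 20.8 and 18.2 at 0% ethanol, 28.8 and 39.3 at 3% and 29.6 and 30.3 at 7%. PXA2 in the diploid read 18.2 and 18.8 at 0% ethanol, 43.4 and 42.4 at 3% and 24.9 and 17.4 at 7%. With ethanol its signal was lower on all arrays labelled alpha and higher on all arrays labelled a, and in the diploid it was highest at 3%. PXA2 changed by -0.048 ± 0.081 (adjusted p = 0.611) in the mean of the strains at 7%, or -0.33 (adjusted p = 0.000419) with quantile normalization and -0.20 (adjusted p = 0.0446) with median centring. By strain it fell by 0.62 ± 0.14 (adjusted p = 0.00119) in the alpha-labelled haploid and rose by 0.37 ± 0.14 (adjusted p = 0.0261) in the a-labelled haploid, where quantile normalization turned the change to -0.18 (adjusted p = 0.232).

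PXA1 in the alpha-labelled haploid read 23.2 and 16.97 at 0% ethanol, 15.02 and 12.3 at 3% and 23.1 and 19.5 at 7%. PXA1 in the a-labelled haploid read 19.1 and 16.9 at 0% ethanol, 21.4 and 28.03 at 3% and 39.1 and 42.3 at 7%. PXA1 in the diploid read 16.2 and 11.4 at 0% ethanol, 17.6 and 16.4 at 3% and 20.5 and 20.6 at 7%. The arrays labelled a at 7% stood above all other arrays of PXA1. The mean of the strains rose by 0.36 ± 0.075 (adjusted p = 0.000231), which was 0.057 with quantile normalization and 0.18 (adjusted p = 0.106) without the a-labelled haploid.

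The 3 enzymes of the core spiral did not move together at 7% ethanol: POX1 rose, FOX2 fell, and POT1 was called upward as scaled here and not with quantile normalization. POX1 (YGL205W) encodes acyl-CoA oxidase, which starts each round and yields hydrogen peroxide. POX1 at 0% ethanol read 12.2 and 9.24 in the alpha-labelled haploid, 12.1 and 13.2 in the a-labelled haploid and 9.64 and 8.86 in the diploid. POX1 at 3% ethanol read 10.1 and 9.25 in the alpha-labelled haploid, 11.2 and 15.4 in the a-labelled haploid and 19.6 and 17.7 in the diploid. POX1 at 7% ethanol read 38.5 and 32.4 in the alpha-labelled haploid, 49.3 and 42.7 in the a-labelled haploid and 29.7 and 20.04 in the diploid. All arrays at 7% exceeded all arrays at 0% and at 3%. POX1 rose by 0.91 ± 0.077 (adjusted p = 1.32e-09) at 7% against 0%, and the change was 1.58 with a pseudocount of 1, its signal being low. At 3% it changed by 0.14 ± 0.077 (adjusted p = 0.13), and in the diploid alone it rose by 0.46 ± 0.13 (adjusted p = 0.0196), with an adjusted p of 0.0528 under quantile normalization.

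FOX2 (YKR009C) encodes the enzyme that carries out the hydratase and dehydrogenase steps. FOX2 in the alpha-labelled haploid read 69.2 and 65.6 at 0% ethanol, 66.2 and 52.2 at 3% and 35.7 and 32.2 at 7%. FOX2 in the a-labelled haploid read 87.2 and 131 at 0% ethanol, 69.6 and 85.6 at 3% and 99.1 and 107 at 7%. FOX2 in the diploid read 62.1 and 86.5 at 0% ethanol, 75.4 and 84.8 at 3% and 42.6 and 52.9 at 7%. Its signal at 7% lay below that at 0% on the arrays labelled alpha and in the diploid, and within the range of 0% on the arrays labelled a. FOX2 fell by 0.43 ± 0.093 (adjusted p = 0.000384) in the mean of the strains, fell by 0.74 ± 0.16 (adjusted p = 0.000795) in the alpha-labelled haploid and fell by 0.49 ± 0.16 (adjusted p = 0.0131) in the diploid. In the a-labelled haploid the change was -0.047 ± 0.16 (adjusted p = 0.818), or -0.52 (adjusted p = 0.00862) with quantile normalization.

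POT1 (YIL160C) encodes the thiolase that releases acetyl-CoA, and its signal exceeded the background limit on 2 of 6 arrays at 0%, 2 of 6 at 3% and 4 of 6 at 7%. POT1 had its lowest, median and highest signals at 3.54, 4.67 and 13.2 on the 6 arrays at 0% ethanol, at 2.05, 3.88 and 8.45 at 3%, and at 4.59, 8.14 and 17.9 at 7%. Its called change was 0.19 ± 0.075 (adjusted p = 0.027) at 7% against 0%, and -0.028 with quantile normalization. The call ended, with the adjusted p in parentheses, without replicate 2 of the alpha-labelled haploid at 0% (0.0595), replicate 2 of the alpha-labelled haploid at 7% (0.107), replicate 2 of the a-labelled haploid at 0% (0.0812), replicate 2 of the a-labelled haploid at 7% (0.0644), replicate 1 of the diploid at 0% (0.0606) or replicate 1 of the diploid at 7% (0.0677).

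Of 5 auxiliary enzymes, which handle unsaturated chains or supply NADPH and free CoA, 4 rose and 1 fell at 7% ethanol, and of the 4 rises that of DCI1 remained called under the 3 other scalings. DCI1 (YOR180C) is a relative of the enoyl-CoA isomerase ECI1. DCI1 at 0% ethanol read 30.7 and 32.8 in the alpha-labelled haploid, 23.6 and 32.04 in the a-labelled haploid and 35.5 and 23.6 in the diploid. DCI1 at 3% ethanol read 45.7 and 28.7 in the alpha-labelled haploid, 32.8 and 26.2 in the a-labelled haploid and 19.8 and 17.6 in the diploid. DCI1 at 7% ethanol read 65.8 and 66.2 in the alpha-labelled haploid, 63.6 and 59.8 in the a-labelled haploid and 54.4 and 40.3 in the diploid. The arrays at 7% lay above all arrays at 0%, and within each strain above those at 3%. DCI1 rose by 0.70 ± 0.093 (adjusted p = 1.21e-06) at 7% against 0% and rose by 0.76 ± 0.093 (adjusted p = 7.13e-07) from 3% to 7%.

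ECI1 (YLR284C) shifts double bonds in unsaturated acyl-CoA into the position that beta-oxidation can use. ECI1 in the alpha-labelled haploid read 86.3 and 90.4 at 0% ethanol, 71.3 and 73.9 at 3% and 90.2 and 78.7 at 7%. ECI1 in the a-labelled haploid read 93.6 and 93.6 at 0% ethanol, 97.4 and 84.03 at 3% and 134 and 144 at 7%. ECI1 in the diploid read 90.6 and 95.03 at 0% ethanol, 94.5 and 102 at 3% and 105 and 103 at 7%. The 2 arrays labelled a at 7% stood above all others. In the a-labelled haploid ECI1 rose by 0.50 ± 0.11 (adjusted p = 0.000412), or 0.049 (adjusted p = 0.71) with quantile normalization, and in the mean of the strains its change was 0.19 ± 0.061 (adjusted p = 0.00798) as scaled here, -0.074 with quantile normalization and 0.043 without the a-labelled haploid.

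TES1 (YJR019C) encodes a peroxisomal thioesterase that frees CoA from acyl-CoA. TES1 in the alpha-labelled haploid read 104 and 90.2 at 0% ethanol, 69.96 and 56.2 at 3% and 70.7 and 59.6 at 7%. TES1 in the a-labelled haploid read 142 and 188 at 0% ethanol, 114 and 117 at 3% and 157 and 162 at 7%. TES1 in the diploid read 139.8 and 125 at 0% ethanol, 109.7 and 116 at 3% and 127 and 108 at 7%. In each strain both arrays at 3% lay below both at 0%. TES1 fell by 0.39 ± 0.076 (adjusted p = 0.000311) at 3% and fell by 0.23 ± 0.076 (adjusted p = 0.0126) at 7% in the mean of the strains. The second call ended without replicate 2 of the a-labelled haploid at 0% (0.0631), the adjusted p being in parentheses.

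SPS19 (YNL202W), a dienoyl-CoA reductase for chains with double bonds, had its lowest, median and highest signals at 10.9, 15.2 and 19.96 on the 6 arrays at 0% ethanol, at 11.5, 13.8 and 15.1 at 3%, and at 12.5, 21.7 and 32.5 at 7%. IDP3 (YNL009W), the peroxisomal NADP-dependent isocitrate dehydrogenase, had its lowest, median and highest signals at 7.32, 12.95 and 15.5 on the 6 arrays at 0% ethanol, at 7.48, 10.8 and 15.5 at 3%, and at 15.4, 18.4 and 24.05 at 7%. The levels overlapped for both genes. Their changes at 7% were 0.28 ± 0.077 and 0.33 ± 0.081 as scaled here (adjusted p = 0.00335 and 0.00108), and -0.029 and 0.076 with quantile normalization.

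Acetyl units, NADH and hydrogen peroxide made in the peroxisome are handled by CAT2, MDH3 and CTA1, and of these CAT2 rose and MDH3 fell at 7% ethanol, with CTA1 called lower only under quantile normalization among the 4 scalings. CAT2 (YML042W) encodes carnitine acetyltransferase of peroxisomes and mitochondria. CAT2 in the alpha-labelled haploid read 64.6 and 61.5 at 0% ethanol, 68.1 and 63.7 at 3% and 114 and 90.6 at 7%. CAT2 in the a-labelled haploid read 73.7 and 82.1 at 0% ethanol, 89.99 and 88.1 at 3% and 248 and 249 at 7%. CAT2 in the diploid read 60.1 and 65.8 at 0% ethanol, 70.8 and 69.6 at 3% and 118 and 104 at 7%. All arrays at 7% exceeded all at 0% and 3%, and the pair labelled a at 7% stood far above the rest. CAT2 rose by 0.92 ± 0.065 (adjusted p = 1e-10) in the mean of the strains, or 1.89-fold, and by 0.57, 1.49 and 0.69 in the alpha-labelled haploid, the a-labelled one and the diploid.

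MDH3 (YDL078C), the peroxisomal malate dehydrogenase that reoxidises NADH, had its lowest, median and highest signals at 882, 1093 and 1199.9 on the 6 arrays at 0% ethanol, at 896, 996 and 1175 at 3%, and at 762, 871 and 919 at 7%. The levels overlapped across strains, yet within each strain MDH3 was lower at 7% than at 0%, and in the mean of the strains it fell by 0.33 ± 0.049 (adjusted p = 5.56e-06).

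CTA1 (YDR256C) encodes catalase A, which removes hydrogen peroxide in the peroxisome. CTA1 in the alpha-labelled haploid read 15.8 and 16.2 at 0% ethanol, 12.7 and 12.96 at 3% and 10.2 and 12.7 at 7%. CTA1 in the a-labelled haploid read 16.4 and 15.9 at 0% ethanol, 13.97 and 16.2 at 3% and 26.2 and 22.8 at 7%. CTA1 in the diploid read 15.4 and 11.1 at 0% ethanol, 10.3 and 12.8 at 3% and 13.3 and 6.45 at 7%. The pair labelled a at 7% lay above all other arrays. In the mean of the strains the change was -0.025 ± 0.077 (adjusted p = 0.784), or -0.29 (adjusted p = 0.00209) with quantile normalization, and in the a-labelled haploid CTA1 rose by 0.33 ± 0.13 (adjusted p = 0.0369), which was -0.16 (adjusted p = 0.305) with quantile normalization.

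Of the 2 transcription factors that bind the oleate response element as a pair, PIP2 fell and OAF1 was not called. PIP2 (YOR363C) at 0% ethanol read 98.9 and 107 in the alpha-labelled haploid, 75.9 and 84.2 in the a-labelled haploid and 118 and 102 in the diploid. PIP2 at 3% ethanol read 75.8 and 54.5 in the alpha-labelled haploid, 55.9 and 54.9 in the a-labelled haploid and 67.8 and 73.2 in the diploid. PIP2 at 7% ethanol read 47.5 and 50.3 in the alpha-labelled haploid, 68.8 and 59.8 in the a-labelled haploid and 47.1 and 47.6 in the diploid. The 6 arrays at 0% lay above all arrays at 3% and 7%. PIP2 fell by 0.51 ± 0.073 (adjusted p = 1.11e-05) at 3% and fell by 0.71 ± 0.073 (adjusted p = 2.88e-08) at 7% in the mean of the strains. At 7% it fell by 0.87 in the alpha-labelled haploid and 0.99 in the diploid, and its change in the a-labelled haploid was -0.26 ± 0.13 (adjusted p = 0.0785), or -0.81 (adjusted p = 2.4e-05) with quantile normalization. OAF1 (YAL051W) had its lowest, median and highest signals at 88.2, 119.9 and 145 on the 6 arrays at 0% ethanol, at 105, 124 and 127 at 3%, and at 92.4, 117 and 138 at 7%. Its change was -0.027 ± 0.085 (adjusted p = 0.788), and with quantile normalization -0.27 (adjusted p = 0.00515).

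**Figure D2:**
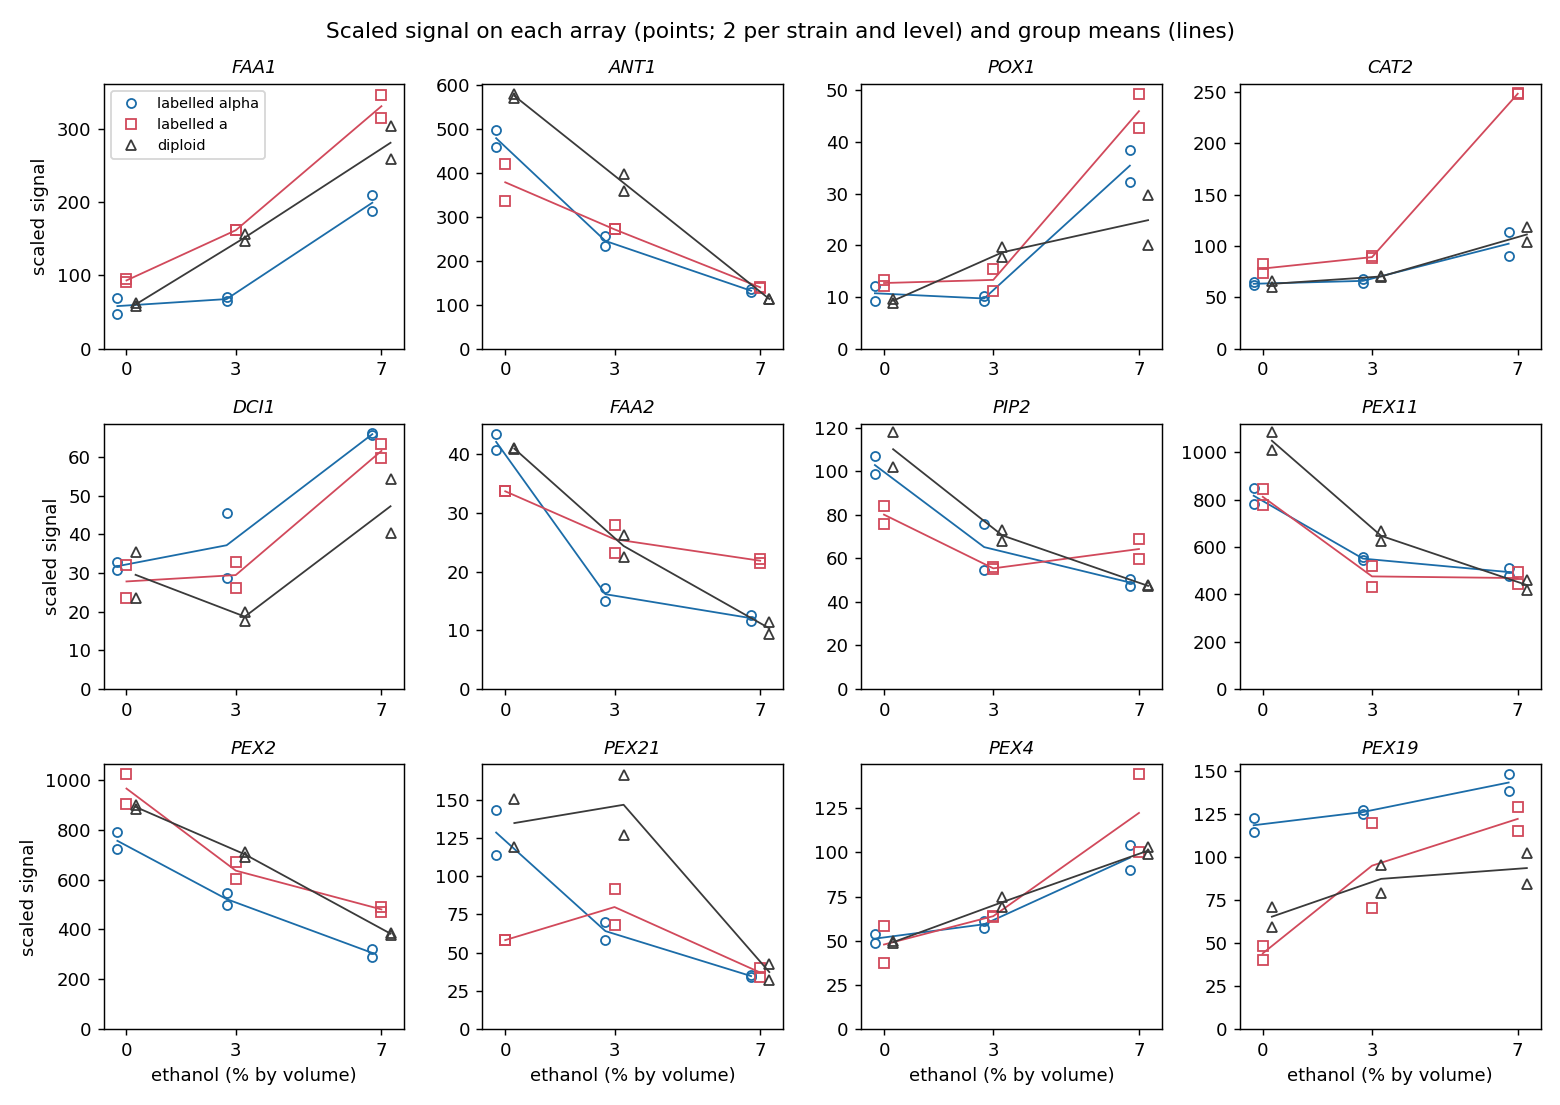
Scaled signal against ethanol level (% by volume) for 12 of the members on all 18 arrays. Each point is 1 array, lines join the means of the 2 arrays of a group, and colours and symbols mark the strains. At 7% every FAA1, POX1 and CAT2 array lies above every array at 0%, and every ANT1, FAA2, PIP2, PEX11, PEX2 and PEX21 array lies below.

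Among the 25 PEX genes 8 rose and 10 fell at 7% ethanol as scaled here, against 48.3% and 22.3% of all genes. Their median change was -0.07, and that of all genes was 0.13. The 4 cargo receptor genes split, 2 up and 2 down, of which the PEX7 rise was not called with quantile normalization. PEX5 (YDR244W) encodes the receptor for the common carboxy-terminal targeting signal. PEX5 at 0% ethanol read 109 and 87.6 in the alpha-labelled haploid, 69.9 and 67.6 in the a-labelled haploid and 108 and 103 in the diploid. PEX5 at 3% ethanol read 62.2 and 49.5 in the alpha-labelled haploid, 75.9 and 80.4 in the a-labelled haploid and 67.3 and 70.9 in the diploid. PEX5 at 7% ethanol read 44.5 and 42.8 in the alpha-labelled haploid, 47.03 and 50.02 in the a-labelled haploid and 56.5 and 43.1 in the diploid. All arrays at 7% lay below all arrays at 0%, with the arrays labelled a at 0% nearest to them. PEX5 fell by 0.74 ± 0.073 (adjusted p = 1.67e-08) in the mean of the strains.

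PEX18 and PEX21 encode related co-receptors that act with Pex7 on the amino-terminal signal. They moved in opposite directions at 7% against 0%, and both changes were negative at 3% against 0%. PEX21 (YGR239C) at 0% ethanol read 114 and 143 in the alpha-labelled haploid, 58.1 and 58.4 in the a-labelled haploid and 119 and 150.4 in the diploid. PEX21 at 3% ethanol read 70.02 and 58.2 in the alpha-labelled haploid, 91.6 and 68.1 in the a-labelled haploid and 166 and 127 in the diploid. PEX21 at 7% ethanol read 34.05 and 35.4 in the alpha-labelled haploid, 34.3 and 39.8 in the a-labelled haploid and 42.3 and 32.4 in the diploid. Every array at 7% lay below every array at 0% and 3%. PEX21 fell by 1.16 ± 0.09 (adjusted p = 3.5e-10) at 7% against 0%, 2.24-fold lower, and fell by 1.03 ± 0.09 (adjusted p = 4.54e-09) from 3% to 7%.

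PEX18 (YHR160C) at 0% ethanol read 25.1 and 30.6 in the alpha-labelled haploid, 34.8 and 21.9 in the a-labelled haploid and 19.6 and 16.01 in the diploid. PEX18 at 3% ethanol read 14.01 and 8.48 in the alpha-labelled haploid, 19.3 and 20.9 in the a-labelled haploid and 26.3 and 19.6 in the diploid. PEX18 at 7% ethanol read 31.1 and 37.7 in the alpha-labelled haploid, 58.9 and 58.7 in the a-labelled haploid and 39.98 and 37.6 in the diploid. The arrays at 7% exceeded all arrays at 3% and overlapped those at 0%. PEX18 rose by 0.56 ± 0.085 (adjusted p = 7.53e-06) at 7% against 0% and rose by 0.81 ± 0.085 (adjusted p = 7.88e-08) from 3% to 7%. With a pseudocount of 1 the first change was 0.81, and in the alpha-labelled haploid alone it was 0.20 ± 0.15 (adjusted p = 0.282). At 3% against 0% PEX18 fell by 0.26 (adjusted p = 0.0177) in the mean of the strains. That change was -0.33 to -0.19 when single arrays were left out.

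PEX7 (YDR142C), the receptor for the amino-terminal signal, had its lowest, median and highest signals at 171, 181 and 199.6 on the 6 arrays at 0% ethanol, at 159, 177 and 203 at 3%, and at 176, 196 and 252 at 7%. Its change of 0.15 ± 0.057 (adjusted p = 0.0286) became -0.038 with quantile normalization. The call ended, with the adjusted p in parentheses, without replicate 1 of the alpha-labelled haploid at 0% (0.08), replicate 1 of the alpha-labelled haploid at 7% (0.089), replicate 1 of the a-labelled haploid at 0% (0.0784), replicate 1 of the a-labelled haploid at 7% (0.087) or replicate 2 of the diploid at 7% (0.0664).

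Of 4 genes for docking and translocation at the membrane, PEX14 fell and the other 3 were not called at 7% ethanol as scaled here, while PEX17 was called lower under the 3 other scalings and PEX8 under quantile normalization and median centring. PEX14 (YGL153W) encodes the docking protein that receives loaded receptors. PEX14 in the alpha-labelled haploid read 215 and 207 at 0% ethanol, 138 and 129 at 3% and 146 and 145 at 7%. PEX14 in the a-labelled haploid read 128 and 131 at 0% ethanol, 141 and 169 at 3% and 141 and 146 at 7%. PEX14 in the diploid read 196 and 210.0 at 0% ethanol, 194 and 166 at 3% and 128 and 111 at 7%. On the arrays labelled alpha and in the diploid the signal at 7% lay below that at 0%, and on the arrays labelled a it lay slightly above. PEX14 fell by 0.35 ± 0.063 (adjusted p = 4.46e-05) in the mean of the strains, fell by 0.50 ± 0.11 (adjusted p = 0.000817) in the alpha-labelled haploid and fell by 0.69 ± 0.11 (adjusted p = 1.68e-05) in the diploid. In the a-labelled haploid it changed by 0.13 ± 0.11 (adjusted p = 0.299), or -0.27 (adjusted p = 0.0278) with quantile normalization.

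PEX13 (YLR191W) encodes its membrane-bound partner in docking. PEX13 in the alpha-labelled haploid read 97.9 and 106 at 0% ethanol, 71.97 and 93.8 at 3% and 82.5 and 68.5 at 7%. PEX13 in the a-labelled haploid read 53.6 and 55.8 at 0% ethanol, 79.4 and 97.5 at 3% and 86.7 and 129.7 at 7%. PEX13 in the diploid read 90.1 and 57.6 at 0% ethanol, 86.1 and 77.3 at 3% and 77.5 and 81.9 at 7%. On the arrays labelled a the pairs with ethanol read above the pair at 0%, on those labelled alpha they read below it, and in the diploid 1 array at 0% read lower than all others of that strain. The change in the mean of the strains was 0.18 ± 0.099 (adjusted p = 0.111). It became a call without replicate 1 of the a-labelled haploid at 7% (0.0217) or replicate 1 of the diploid at 0% (0.0178), adjusted p in parentheses, and was 0.45 (adjusted p = 0.00305) without the alpha-labelled haploid. In the a-labelled haploid PEX13 rose by 0.79 ± 0.17 (adjusted p = 0.000468), or 0.25 (adjusted p = 0.204) with quantile normalization.

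PEX17 (YNL214W) encodes another component of the docking complex. PEX17 in the alpha-labelled haploid read 76.1 and 90.4 at 0% ethanol, 57.9 and 63.8 at 3% and 53.6 and 59.8 at 7%. PEX17 in the a-labelled haploid read 68.5 and 81.6 at 0% ethanol, 62.6 and 77.1 at 3% and 83.2 and 91.9 at 7%. PEX17 in the diploid read 72.7 and 87.1 at 0% ethanol, 68.8 and 91.4 at 3% and 72.4 and 66.7 at 7%. The pair at 7% lay below the pair at 0% on the arrays labelled alpha and above it on the arrays labelled a. In the alpha-labelled haploid PEX17 fell by 0.45 ± 0.14 (adjusted p = 0.011), and in the mean of the strains it changed by -0.14 ± 0.079 (adjusted p = 0.121). The latter was -0.44 (adjusted p = 6.33e-05) with quantile normalization, -0.33 (adjusted p = 0.00131) with median centring and -0.23 (adjusted p = 0.0373) without scaling. PEX8 (YGR077C), which links docking to the ubiquitin ligases from inside the organelle, had its lowest, median and highest signals at 297, 329 and 388 on the 6 arrays at 0% ethanol, at 249.8, 278 and 315 at 3%, and at 267, 296 and 428 at 7%. PEX8 fell by 0.25 ± 0.054 (adjusted p = 0.000957) at 3%, and its change at 7% was -0.07 ± 0.054 (adjusted p = 0.256), or -0.15 (adjusted p = 0.0254) with quantile normalization and -0.28 (adjusted p = 0.000214) with median centring.

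Both measured RING ubiquitin ligase genes, whose products mark receptors for removal from the membrane, fell at 7% ethanol. PEX2 (YJL210W) at 0% ethanol read 789.6 and 721 in the alpha-labelled haploid, 905 and 1025 in the a-labelled haploid and 898 and 884 in the diploid. PEX2 at 3% ethanol read 547 and 497 in the alpha-labelled haploid, 601 and 671 in the a-labelled haploid and 692 and 710.1 in the diploid. PEX2 at 7% ethanol read 321 and 290.4 in the alpha-labelled haploid, 470.0 and 491 in the a-labelled haploid and 379 and 387 in the diploid. The 3 levels did not overlap: every array at 7% lay below every array at 3%, and every array at 3% below every array at 0%. PEX2 fell by 0.48 ± 0.051 (adjusted p = 2.53e-07) at 3% and fell by 1.14 ± 0.051 (adjusted p = 4.75e-14) at 7%, 2.21-fold lower. PEX10 (YDR265W) had its lowest, median and highest signals at 173, 199 and 227 on the 6 arrays at 0% ethanol, at 143, 178 and 204 at 3%, and at 128, 176 and 202 at 7%. PEX10 fell by 0.23 ± 0.065 (adjusted p = 0.00409) at 7%, and its change was -0.12 (adjusted p = 0.194) without the alpha-labelled haploid and -0.19 (adjusted p = 0.0643) without the diploid.

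Of 4 genes that return the receptor to the cytosol, 3 rose and 0 fell at 7% ethanol as scaled here, while with quantile normalization the PEX6 rise was not called and PEX15 was called lower. PEX4 (YGR133W) encodes the ubiquitin-conjugating enzyme that tags the receptor. PEX4 at 0% ethanol read 48.8 and 53.8 in the alpha-labelled haploid, 37.6 and 58.2 in the a-labelled haploid and 48.6 and 49.9 in the diploid. PEX4 at 3% ethanol read 57.3 and 61.4 in the alpha-labelled haploid, 64.2 and 63.7 in the a-labelled haploid and 69.3 and 74.6 in the diploid. PEX4 at 7% ethanol read 104 and 89.9 in the alpha-labelled haploid, 100.3 and 145 in the a-labelled haploid and 99.2 and 103 in the diploid. Every array at 7% exceeded every array at 0% and at 3%. PEX4 rose by 0.90 ± 0.086 (adjusted p = 9.75e-09) at 7% against 0%, 1.87-fold, and rose by 0.31 ± 0.086 (adjusted p = 0.00543) at 3%, the latter 0.18 (adjusted p = 0.091) with quantile normalization.

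PEX22 (YAL055W) encodes the membrane anchor of Pex4. PEX22 in the alpha-labelled haploid read 85.7 and 104 at 0% ethanol, 91.9 and 112 at 3% and 122 and 151 at 7%. PEX22 in the a-labelled haploid read 48.5 and 67.8 at 0% ethanol, 131 and 161 at 3% and 131 and 143 at 7%. PEX22 in the diploid read 49.8 and 74.8 at 0% ethanol, 61.1 and 73.5 at 3% and 104 and 82.3 at 7%. Within each strain both arrays at 7% read above both at 0%, and on the arrays labelled a the step was already present at 3%. PEX22 rose by 0.67 ± 0.097 (adjusted p = 3.76e-06) in the mean of the strains at 7%. PEX6 (YNL329C), an ATPase that pulls the receptor out, had its lowest, median and highest signals at 71.8, 79.6 and 91.8 on the 6 arrays at 0% ethanol, at 76.9, 91.1 and 100.4 at 3%, and at 94.3, 108 and 122 at 7%. For PEX6 the arrays at 7% lay above those at 0%, with a change of 0.35 ± 0.06 (adjusted p = 2.85e-05) that was 0.059 (adjusted p = 0.39) with quantile normalization.

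PEX15 (YOL044W) encodes the anchor that holds the Pex6 ATPase at the membrane. PEX15 in the alpha-labelled haploid read 74.6 and 75.7 at 0% ethanol, 48.8 and 48.97 at 3% and 37.6 and 57.04 at 7%. PEX15 in the a-labelled haploid read 61.6 and 49.7 at 0% ethanol, 56.2 and 50.1 at 3% and 76.5 and 73.1 at 7%. PEX15 in the diploid read 83.7 and 65.3 at 0% ethanol, 73.02 and 62.3 at 3% and 65.5 and 54.5 at 7%. The pair at 7% lay below the pair at 0% on the arrays labelled alpha and above it on the arrays labelled a. PEX15 fell by 0.54 ± 0.15 (adjusted p = 0.00429) in the alpha-labelled haploid, and its change in the a-labelled haploid was 0.35 ± 0.15 (adjusted p = 0.0438), -0.22 with quantile normalization. In the mean of the strains it was -0.15 ± 0.084 (adjusted p = 0.121), which became a call without replicate 2 of the alpha-labelled haploid at 7% (0.0208), adjusted p in parentheses. It was -0.46 (adjusted p = 7.85e-05) with quantile normalization, -0.33 (adjusted p = 0.00237) with median centring and -0.23 (adjusted p = 0.0326) without scaling.

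PEX19 and PEX3 place membrane proteins in the peroxisome. PEX19 (YDL065C) in the alpha-labelled haploid read 123 and 114 at 0% ethanol, 125 and 128 at 3% and 138 and 149 at 7%. PEX19 in the a-labelled haploid read 48.2 and 40.02 at 0% ethanol, 70.2 and 119.9 at 3% and 115 and 129 at 7%. PEX19 in the diploid read 59.6 and 71.2 at 0% ethanol, 95.7 and 79.1 at 3% and 103 and 84.6 at 7%. The alpha-labelled haploid already read at 0% above the diploid at 7%, and within each strain the arrays at 7% lay above those at 0%. PEX19 rose by 0.63 ± 0.093 (adjusted p = 4.87e-06) in the mean of the strains, by 1.20 in the a-labelled haploid and 0.43 in the diploid, the latter 0.15 (adjusted p = 0.427) with quantile normalization, and its change in the alpha-labelled haploid was 0.24 ± 0.16 (adjusted p = 0.226). PEX3 (YDR329C), the membrane receptor for Pex19, had its lowest, median and highest signals at 87.99, 100.5 and 106 on the 6 arrays at 0% ethanol, at 74.4, 102 and 123 at 3%, and at 96.8, 108 and 147 at 7%. Its change was 0.17 ± 0.072 (adjusted p = 0.0352), and -0.095 with quantile normalization. The PEX3 call ended, with the adjusted p in parentheses, without replicate 1 of the alpha-labelled haploid at 0% (0.0602), replicate 2 of the alpha-labelled haploid at 0% (0.0534), replicate 1 of the alpha-labelled haploid at 7% (0.0969), replicate 2 of the a-labelled haploid at 0% (0.0932), replicate 2 of the a-labelled haploid at 7% (0.0924), replicate 1 of the diploid at 0% (0.0576), replicate 2 of the diploid at 0% (0.0566) or replicate 1 of the diploid at 7% (0.0789).

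Of the 9 genes that set the division, size and number of peroxisomes, 5 fell, 1 rose and 3 were not called at 7% ethanol. PEX11 (YOL147C) encodes the membrane-bending factor that drives proliferation. PEX11 at 0% ethanol read 851 and 782 in the alpha-labelled haploid, 778 and 846 in the a-labelled haploid and 1011 and 1086 in the diploid. PEX11 at 3% ethanol read 558 and 543 in the alpha-labelled haploid, 429.5 and 521 in the a-labelled haploid and 626 and 667 in the diploid. PEX11 at 7% ethanol read 510.0 and 477 in the alpha-labelled haploid, 441 and 495 in the a-labelled haploid and 417 and 460.1 in the diploid. The arrays at 0% lay above all arrays at 3% and at 7%. PEX11 fell by 0.67 ± 0.056 (adjusted p = 9.53e-09) at 3% and fell by 0.90 ± 0.056 (adjusted p = 8.81e-12) at 7%, or 1.87-fold lower, and it fell in each strain at both levels.

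The other falls were smaller. PEX28 (YHR150W) in the alpha-labelled haploid read 94.9 and 88.95 at 0% ethanol, 74.02 and 55.8 at 3% and 66.1 and 67.6 at 7%. PEX28 in the a-labelled haploid read 68.4 and 71.2 at 0% ethanol, 83.5 and 81.5 at 3% and 75.96 and 85.6 at 7%. PEX28 in the diploid read 99.00 and 90.7 at 0% ethanol, 82.8 and 80.4 at 3% and 72.4 and 68.4 at 7%. The pairs at 7% lay below those at 0% on the arrays labelled alpha and in the diploid, and above them on the arrays labelled a. PEX28 fell by 0.19 ± 0.067 (adjusted p = 0.016) in the mean of the strains, and the call ended without replicate 1 of the a-labelled haploid at 7% (0.0513), adjusted p in parentheses.

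PEX25 (YPL112C), a relative of PEX11, had its lowest, median and highest signals at 175, 240.1 and 314 on the 6 arrays at 0% ethanol, at 149.9, 201 and 244 at 3%, and at 158, 186 and 226 at 7%. PEX29 (YDR479C) had its lowest, median and highest signals at 211, 236 and 251 on the 6 arrays at 0% ethanol, at 170.1, 206 and 267 at 3%, and at 150.4, 176 and 215 at 7%. PEX30 (YLR324W) had its lowest, median and highest signals at 142, 160.4 and 189 on the 6 arrays at 0% ethanol, at 132, 149.5 and 166 at 3%, and at 112, 150.0 and 162 at 7%. The levels of these 3 overlapped. PEX25 fell by 0.32 ± 0.078 (adjusted p = 0.000997), PEX29 fell by 0.35 ± 0.06 (adjusted p = 2.54e-05) and PEX30 fell by 0.16 ± 0.067 (adjusted p = 0.0364) at 7%. The PEX30 call ended, with the adjusted p in parentheses, without replicate 2 of the alpha-labelled haploid at 0% (0.0973), replicate 1 of the alpha-labelled haploid at 7% (0.0939), replicate 2 of the a-labelled haploid at 0% (0.0718), replicate 1 of the a-labelled haploid at 7% (0.0722), replicate 2 of the a-labelled haploid at 7% (0.051), replicate 1 of the diploid at 0% (0.0868) or replicate 2 of the diploid at 7% (0.106).

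PEX34 (YCL056C) encodes a membrane protein that promotes peroxisome division together with the Pex11 family. PEX34 in the alpha-labelled haploid read 296 and 322 at 0% ethanol, 307 and 273 at 3% and 254 and 288 at 7%. PEX34 in the a-labelled haploid read 227 and 228 at 0% ethanol, 312 and 301 at 3% and 370.4 and 377 at 7%. PEX34 in the diploid read 249 and 239 at 0% ethanol, 291 and 326 at 3% and 331 and 304 at 7%. The signal at 7% lay above that at 0% on the arrays labelled a and in the diploid, and below it on the arrays labelled alpha. The change in the mean of the strains was 0.28 ± 0.055 (adjusted p = 0.000119), and 0.079 (adjusted p = 0.201) with median centring. PEX34 rose by 0.68 ± 0.096 (adjusted p = 4.39e-06) in the a-labelled haploid. PEX27, PEX31 and PEX32 were not called at 7%, with changes of 0.15 ± 0.098, 0.043 ± 0.079 and 0.022 ± 0.064. With median centring those of PEX31 and PEX32 became -0.16 and -0.17 (adjusted p = 0.0431 and 0.0164).

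At 3% ethanol the falls outnumbered the rises. In the mean of the strains 6 members rose and 14 fell against 0%, where 32% and 17.3% of all genes did, and 0 members and 0.671% of all genes changed by 2-fold or more. The members' median change was -0.086 and that of all genes 0.062. The comparisons at 3% and at 7% share the arrays at 0%. Of the 20 calls, 13 held whichever single array was left out: PEX5, PEX8, PEX2, PEX11, FAA2, ANT1, TES1, PIP2 among the falls and PEX4, PEX22, PEX19, PEX34, FAA1 among the rises. With quantile normalization the counts at 3% were 4 and 23, against 23.1% and 22.5% of all genes. Without replicate 2 of the alpha-labelled haploid at 3% the falls numbered 9.

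Between 3% and 7% ethanol 14 members rose and 12 fell, against 38% and 18.3% of all genes. CAT2, DCI1 and POX1 were not called at 3% against 0% and rose from 3% to 7%. CAT2 changed by 0.11 ± 0.065 at 3% and then rose by 0.80 ± 0.065 (adjusted p = 1.7e-09). DCI1 changed by -0.062 ± 0.093 at 3%, and POX1 rose by 0.77 ± 0.077 (adjusted p = 3.68e-08) from 3% to 7%. FAA1 rose at both steps, by 0.68 ± 0.073 at 3% against 0% and 1.05 ± 0.073 from 3% to 7%. PEX11 and FAA2 had larger changes at the first step than at the second, and PEX21 the reverse. PEX11 fell by 0.24 ± 0.056 (adjusted p = 0.00111) and FAA2 fell by 0.31 ± 0.066 (adjusted p = 0.000423) in the second step. PEX21 changed by -0.13 ± 0.09 (adjusted p = 0.248) in the first, or -0.25 (adjusted p = 0.0214) with quantile normalization. Without the diploid 5 members fell from 3% to 7%.

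Counts within each strain follow, each set against the arrays at 0% of the same strain. In the alpha-labelled haploid 0 members rose and 14 fell at 3%, against 12.6% and 12.6% of all genes. At 7% it had 7 rises and 17 falls, against 26.9% and 19.9%. The a-labelled haploid had 7 and 7 at 3% (31.5% and 12% of all genes) and 21 and 7 at 7% (48.4% and 15.1%). The diploid had 5 and 6 at 3% (12.4% and 7.96%) and 9 and 15 at 7% (36.5% and 20%). The share of members that fell in the alpha-labelled haploid and in the diploid at 7% was above the share of all genes that fell, and the share that rose was below it. In the a-labelled haploid both shares were near those of all genes as scaled here, and with quantile normalization 7 members rose and 18 fell, against 27.2% and 26.8% of all genes. Leaving out replicate 2 of the alpha-labelled haploid at 3% gave 9 falls and 1 rise there, and leaving out its replicate 2 at 0% gave 1 rise. Leaving out replicate 2 of the a-labelled haploid at 0% gave 3 falls at 3%. In the diploid at 3%, the rises numbered 2 without either array at 0% or without replicate 2 at 3%, and 3 without replicate 1 at 3%, and the falls numbered 3 without replicate 1 at 0%.

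The change at 7% was higher in the a-labelled haploid than in the alpha-labelled haploid for 21 of 43 members and lower for 0, by a test of the difference itself. All genes gave 30.5% and 7.4%, and their median difference was 0.21 against 0.45 for the members. This comparison rests on the scaling: with quantile normalization the median difference of all genes was -0.011 and 3 members remained higher, with median centring 7 were higher and 1 lower, and without scaling 18 were higher. Of all genes, 10.2% were higher and 10.4% lower with quantile normalization. The shares were 11.1% and 20.8% with median centring, and 25% and 1.96% without scaling. Both haploid strains enter with their arrays at 0%, which also give the levels compared further on. In the a-labelled haploid alone, median centring gave 11 rises and 15 falls at 7%, against 24.8% and 35.6% of all genes.

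**Figure D3:**
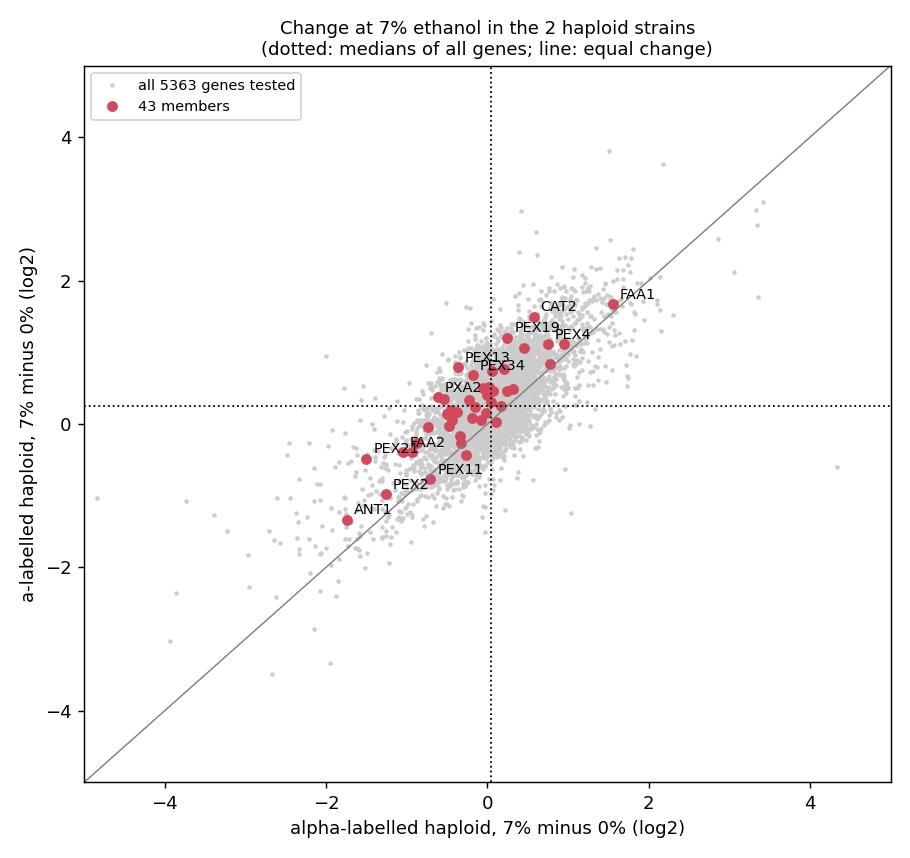
Log2 change at 7% against 0% ethanol in the alpha-labelled haploid (horizontal) and in the a-labelled haploid (vertical), for all 5363 genes tested (grey) and the 43 members (red). Dotted lines are the medians of all genes and the diagonal marks equal change. The 21 members called higher in the a-labelled haploid lie above the diagonal, and PEX13, PEX34 and CAT2 are the 3 of them that remained called with quantile normalization.

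The 3 members whose difference remained called under the 3 other scalings were PEX34, PEX13 and CAT2. PEX34 differed by 0.86 ± 0.14 (adjusted p = 0.00011), with 0.59 to 0.95 across those scalings. PEX13 differed by 1.16 ± 0.24 (adjusted p = 0.00122; 0.71 to 1.23), since it rose in the a-labelled haploid and changed by -0.37 ± 0.17 (adjusted p = 0.0853) in the alpha-labelled haploid, where quantile normalization gave -0.46 (adjusted p = 0.0257). CAT2 rose in both, and its difference was 0.92 ± 0.16 (adjusted p = 0.000276; 0.57 to 1.01).

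At 3% the change was higher in the a-labelled haploid for 12 members and lower for 0, against 15.3% and 3.6% of all genes. The differences in PEX5, PEX14, PEX21, PEX22 and PXA2 remained called under the 3 other scalings. PEX21 differed by 1.20 ± 0.22 (adjusted p = 0.00111), PXA2 by 1.08 ± 0.2 (adjusted p = 0.00116) and PEX22 by 1.05 ± 0.24 (adjusted p = 0.00554). PEX14 differed by 0.83 ± 0.15 (adjusted p = 0.00116) and PEX5 by 0.82 ± 0.18 (adjusted p = 0.00406). PEX5, PEX14, PEX21 and PXA2 fell at 3% in the alpha-labelled haploid. Without replicate 2 of the alpha-labelled haploid at 3%, 7 members were called higher.

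**Figure D4:**
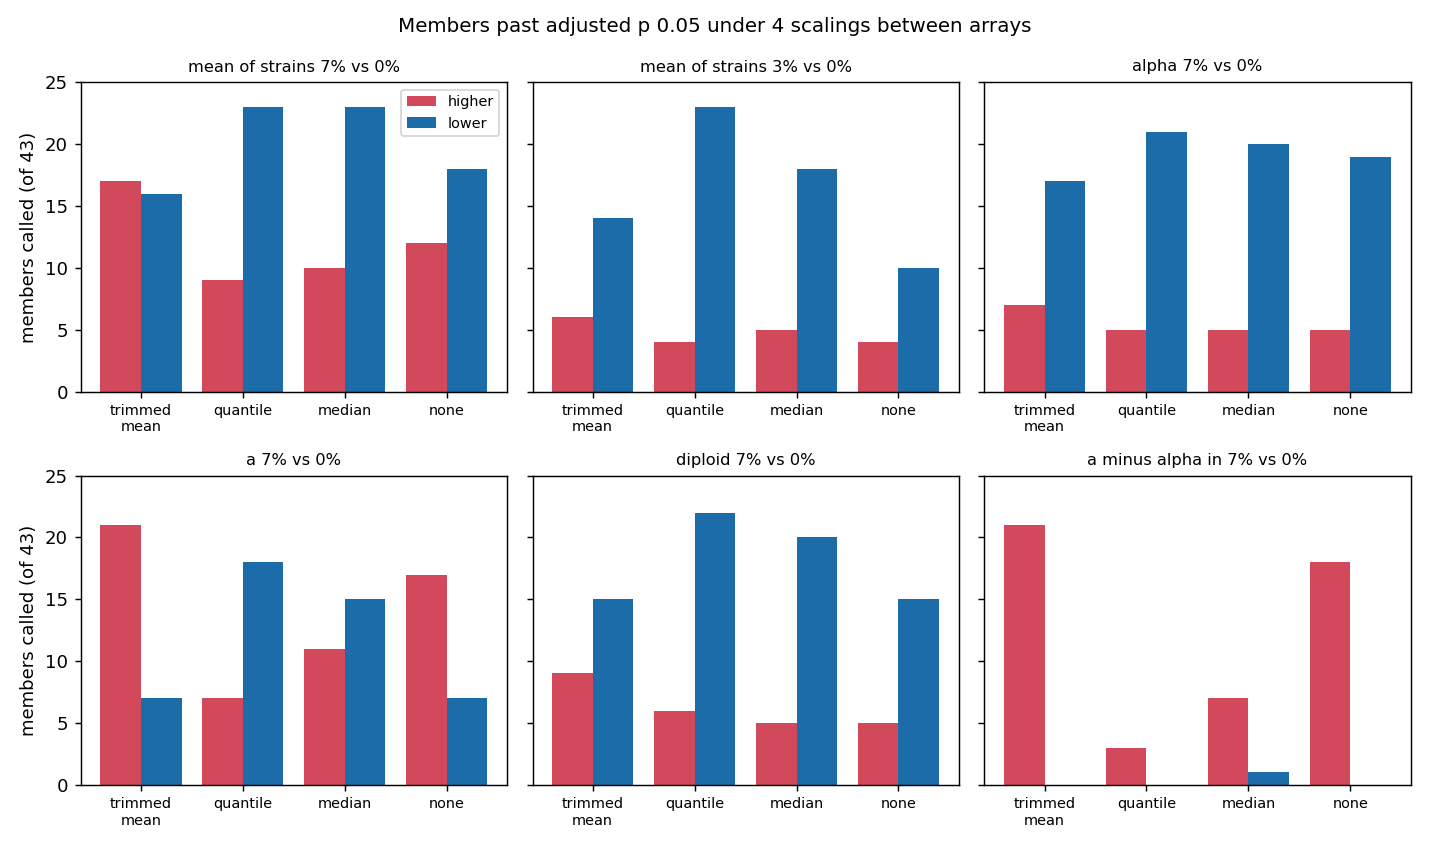
Number of the 43 members called higher (red) and lower (blue) at adjusted p under 0.05 in 6 comparisons, under 4 ways of scaling the arrays to each other. With the strains averaged at 7% against 0%, the lower count goes from 16 with the trimmed mean to 23 with quantile normalization, and in the difference of the a-labelled haploid from the alpha-labelled haploid the higher count goes from 21 to 3.

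The diploid differed from the mean of the haploid strains in the change of 3 members at 7% and of 3 at 3%. At 7%, 0 members had a higher change and 3 a lower one, against 4.77% and 4.44% of all genes. ANT1 fell further in the diploid, by a difference of -0.66 ± 0.13 (adjusted p = 0.00223), as did PEX11 (-0.49 ± 0.12, adjusted p = 0.013). These differences use the arrays at 0%, where both genes were higher in the diploid, as given further on. The results are thus not independent. At 7% PEX11 read 417 and 460 in the diploid and 441 to 510 in the haploid strains, and ANT1 112 and 113 against 128 to 140. PEX14 had a difference of -0.51 ± 0.13 (adjusted p = 0.0197). Without scaling between arrays the ANT1 call remained, and those of PEX11 and PEX14 were lost (adjusted p = 0.0951 and 0.127). Without replicate 1 of the alpha-labelled haploid at 0%, 1 member had a higher change at 7%. At 3%, 3 members were higher and 0 lower, against 4.01% and 4.96%. PXA2 differed by 0.82 ± 0.17 (adjusted p = 0.00388), FAA1 by 0.69 ± 0.16 (adjusted p = 0.00681) and PEX18 by 0.69 ± 0.18 (adjusted p = 0.0198). FAA1 rose at 3% in the diploid and in the a-labelled haploid, by 1.14 and 0.70, and changed by 0.19 ± 0.13 (adjusted p = 0.297) in the alpha-labelled haploid.

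The haploid strains also differed in level without ethanol. At 0%, 7 members were higher in the a-labelled haploid than in the alpha-labelled haploid and 15 lower, against 15.8% and 34.7% of all genes. The 7 that were higher, PEX8, PEX2, FAA1, FOX2, POT1, TES1 and MDH3, remained called under the 3 other scalings. Those scalings raised the median difference of all genes from -0.13 to -0.023 (quantile), 0.0035 (median centring) and -0.021 (unscaled). That shift favours keeping higher calls and losing lower ones. POT1 read below the background limit on both alpha-labelled arrays at 0%. TES1 was 0.67 ± 0.13 higher (adjusted p = 0.000329), FAA1 0.58 ± 0.13 (adjusted p = 0.000853) and FOX2 0.56 ± 0.16 (adjusted p = 0.00681). Of the 15 lower, PEX19, PEX14, PEX21 and PEX13 remained called under those scalings, with PEX19 at -1.17 ± 0.16 (adjusted p = 6.34e-06) and PEX21 at -0.95 ± 0.16 (adjusted p = 4.47e-05). The lower count was 8 without either array labelled alpha at 0% or without replicate 1 labelled a, and the higher count 4 without replicate 2 labelled a. Averaged over the 3 ethanol levels, 21 members were higher in the a-labelled haploid and 6 lower, against 27.8% and 34.3%. The lower count was 3 without replicate 1 of the alpha-labelled haploid at 3%, its replicate 2 at 7%, either replicate of the a-labelled haploid at 0% or its replicate 1 at 7%. Among the 18 enzyme, transporter and factor genes that count was 14 and 0.

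Without ethanol the diploid was higher than the mean of the haploid strains in PEX21, PEX11 and ANT1 and lower in PEX18, so 3 and 1 members, against 7.42% and 10.6% of all genes. PEX21 was higher by 0.54 ± 0.13 (adjusted p = 0.00807), ANT1 by 0.43 ± 0.088 (adjusted p = 0.00195) and PEX11 by 0.36 ± 0.083 (adjusted p = 0.00474), and these 3 remained called under the 3 other scalings. Those scalings raised the median difference of all genes from -0.018 to 0.023 (quantile), 0.031 (median centring) and 0.032 (unscaled), which favours keeping higher calls. Without replicate 2 of the diploid at 0%, 1 member was higher. The PEX18 call was lost without replicate 2 of the alpha-labelled haploid at 0%, replicate 1 of the alpha-labelled haploid at 7%, replicate 2 of the alpha-labelled haploid at 7%, replicate 1 of the a-labelled haploid at 0%, replicate 1 of the a-labelled haploid at 7%, replicate 2 of the a-labelled haploid at 7%, replicate 1 of the diploid at 0%, replicate 2 of the diploid at 0%, replicate 1 of the diploid at 7% or replicate 2 of the diploid at 7%, and without replicate 1 of the alpha-labelled haploid at 0% a further member was lower. Over all levels 7 members were higher and 8 lower (15.8% and 24.6% of all genes), and with quantile normalization 17 and 4 (22.8% and 17.1%). The higher count was 4 without replicate 2 of the diploid at 3% or its replicate 1 at 7%, and the lower count 5 without its replicate 2 at 0%. PEX22 was lower by a difference of -0.48 ± 0.084 (adjusted p = 0.000132).

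Outside the 43, other genes with a peroxisomal product or a role in carnitine and fatty acid transport were also mixed at 7% ethanol. Of 27 measured genes of that list of 28, 11 rose and 9 fell, against 48.3% and 22.3% of all genes. Their median change was -0.10, and that of all genes was 0.13. Under the 3 other scalings, which lowered the median of all genes, 3 of the rises and 8 of the falls remained called. CRC1, the mitochondrial carnitine carrier that takes up the ester made by Cat2, rose by 1.30 ± 0.073 (adjusted p = 1.9e-12). YAT1, the outer mitochondrial carnitine acetyltransferase, fell by 0.75 ± 0.082 (adjusted p = 7.06e-08). FAA3, another acyl-CoA synthetase, rose by 1.11 ± 0.076 (adjusted p = 5.34e-11). FAA4, which shares the activation of imported fatty acids with FAA1, rose by 0.16 ± 0.034 as scaled here and changed by -0.055 with median centring. MLS1, a malate synthase of the glyoxylate cycle, fell by 0.75 ± 0.068 (adjusted p = 4.65e-09), and DNM1, a dynamin for division of peroxisomes and mitochondria, fell by 0.40 ± 0.058 (adjusted p = 4.22e-06).

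Of 14 regulators of these genes 3 rose and 4 fell at 7%, against 48.3% and 22.3% of all genes. Under the 3 other scalings, which lowered the median of all genes, 1 of the rises and 4 of the falls remained called. ADR1, the activator that acts with Oaf1 and Pip2, rose by 1.18 ± 0.11 (adjusted p = 1.26e-08) while PIP2 fell. SNF1, the kinase needed to lift glucose repression, fell by 0.39 ± 0.051 (adjusted p = 8.46e-07), and RTG3, a factor of the retrograde pathway, fell by 0.43 ± 0.081 (adjusted p = 8.28e-05). The glucose-responsive repressor MIG1 changed by 0.13 ± 0.12 (adjusted p = 0.351) and the activator CAT8 by -0.016 ± 0.076 (adjusted p = 0.862). With quantile normalization the CAT8 change was -0.29 (adjusted p = 0.00581).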

How the data were processed

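Per the labels, total RNA was extracted with hot phenol and hybridised to Affymetrix yeast arrays, 1 array for each of 18 samples. The authors deposited 1 intensity for each probe set and array, made with GCOS per the submitters' processing notes (version and settings: not given in the sources used here). Arrays were multiplied so that their 2% trimmed means over S. cerevisiae probe sets were equal, with factors of 0.84 to 1.19. Of 10928 probe sets, 5498 read a single S. cerevisiae gene. A gene was tested if it exceeded, on at least 2 arrays, the 95th percentile of 1746 probe sets for another yeast, a limit of 4.6 to 7.58.

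Group means were fitted to log2(scaled intensity + 16) on all 18 arrays with limma 3.58.1 in R 4.3.3, with an intensity trend in eBayes, and p-values were adjusted over 5363 genes in each comparison. The fit was tested on simulated data. Members are given array by array where this fit gave a log2 change of at least 0.5 in the mean of the strains. A called difference of at least 0.5 between strains also counted. The others are given by range or by their change alone. Because the same arrays chose these members, separation of their levels is not independent support. The members and the lists were chosen with earlier results of these data known. Symbols came from the platform annotation and RefSeq names. There is 1 diploid strain, so ploidy and strain cannot be told apart. Scaling, pseudocount, filters, variance trend, replicate block, 18S rRNA signal, strains and single arrays were varied.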

Additional observations from a re-analysis of the deposited data

Results flagged for a closer look

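These members changed by a different amount with ethanol in different strains, by limma's test of the difference itself at an adjusted p under 0.05. At 7% against 0%, the a-labelled haploid minus the alpha-labelled haploid gave, on the log2 scale, these differences in PEX genes: PEX10 0.49, PEX13 1.16, PEX14 0.63, PEX15 0.89, PEX17 0.63, PEX18 0.57, PEX19 0.96, PEX21 1.02, PEX28 0.55, PEX3 0.50, PEX34 0.86 and PEX5 0.54. For enzymes, transporters and the factor PIP2 they were ANT1 0.41, CAT2 0.92, CTA1 0.55, ECI1 0.55, FAA2 0.66, FOX2 0.69, PIP2 0.61, PXA1 0.68 and PXA2 0.99. All are positive, in a comparison whose median over all genes was 0.21, and PEX34, PEX13 and CAT2 remained called with quantile normalization, with median centring and without scaling.

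At 3% against 0% the same difference between the haploid strains was found in ANT1 0.47, FAA2 0.59, PEX13 0.82, PEX14 0.83, PEX19 0.77, PEX21 1.20, PEX22 1.05, PEX28 0.62, PEX34 0.50, PEX5 0.82, PXA1 0.53 and PXA2 1.08. Of these, PEX5, PEX14, PEX21, PEX22 and PXA2 remained called under the 3 other scalings.

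The diploid minus the mean of the haploid strains gave ANT1 -0.66, PEX11 -0.49 and PEX14 -0.51 at 7%, and FAA1 0.69, PEX18 0.69 and PXA2 0.82 at 3%. ANT1 at 7% and PEX18 and PXA2 at 3% remained called under the 3 other scalings.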

How the results depend on the processing

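Of the counts of called members recomputed under each alternative other than leaving out 1 array, 311 stayed within 1.5 times the reported count and 47 did not. Of the members' changes in the mean of the strains, 1519 kept their side of the threshold. That count includes changes of sign that were called in neither fit. A further 52 gained a call, 87 lost a call and 16 took the opposite sign with a call in either fit. The cause was not tested for any that moved. Filters on dim genes moved no count beyond 1.5 times, and POT1 has no value where a gene had to exceed the background limit on all 18 arrays. Replicate numbers did not pair the samples: over 36 pairs of groups, deviations of same-numbered samples correlated at -0.254 to 0.184, with 11 above 0.1. With the replicate number as a block, 17 members rose and 16 fell at 7% in the mean of the strains, no count moved beyond 1.5 times, and among single members PEX22 gained a call from 3% to 7% (0.23, adjusted p = 0.0204). Signal at or under the background limit holds only a bound on the level, which concerns POT1. Other dim members exceeded the limit on every array but came close to it. CTA1 read 6.45 against a limit of 6.25 on replicate 2 of the diploid at 7%. PEX18 read 8.48 against 7.58 on replicate 2 of the alpha-labelled haploid at 3%. The 2 arrays a group limit what the tests can detect. The ratio of the highest to the lowest array mean, 1.415, exceeded the 10% limit set for leaving arrays unscaled. In the unscaled fit limma's estimate of the prior degrees of freedom was infinite, against 10.7 in the reported fit, so each gene took its variance from the intensity trend alone.

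Quantile normalization moved the count of rises or higher members to 9 (7% against 0% in the mean of the strains), 8 (7% against 3% in the mean of the strains), 4 (3% in the a-labelled haploid), 7 (7% in the a-labelled haploid), 3 (3% in the diploid), 3 (the a-labelled haploid minus the alpha-labelled haploid at 7%), 5 (the a-labelled haploid minus the alpha-labelled haploid at 3%), 17 (the diploid against the haploids over all levels), 5 (the diploid against the haploids at 0%), 11 (the haploid strains at 0%) and falls or lower members to 23 (3% against 0% in the mean of the strains), 15 (3% in the a-labelled haploid), 18 (7% in the a-labelled haploid), 4 (the diploid against the haploids over all levels), 0 (the diploid against the haploids at 0%), 7 (the haploid strains at 0%). Median centring moved the count of rises or higher members to 10 (7% against 0% in the mean of the strains), 3 (3% in the a-labelled haploid), 11 (7% in the a-labelled haploid), 5 (7% in the diploid), 7 (the a-labelled haploid minus the alpha-labelled haploid at 7%), 5 (the a-labelled haploid minus the alpha-labelled haploid at 3%), 13 (the diploid against the haploids over all levels), 5 (the diploid against the haploids at 0%) and falls or lower members to 13 (3% in the a-labelled haploid), 15 (7% in the a-labelled haploid), 1 (the a-labelled haploid minus the alpha-labelled haploid at 7%), 1 (the a-labelled haploid minus the alpha-labelled haploid at 3%), 5 (the diploid against the haploids over all levels), 0 (the diploid against the haploids at 0%), 6 (the haploid strains at 0%). Leaving arrays unscaled moved the count of rises or higher members to 2 (3% in the diploid), 5 (7% in the diploid), 7 (the a-labelled haploid minus the alpha-labelled haploid at 3%), 3 (the diploid against the haploids over all levels) and falls or lower members to 1 (the diploid minus the haploids at 7%), 0 (the diploid against the haploids at 0%), 2 (the haploid strains over all levels), 5 (the haploid strains at 0%).

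Between the diploid and the haploids at 0%, the 1 lower member was lost (0) with a pseudocount of 1 or 64 and with the 18S rRNA signal as covariate, and 5 were higher without an intensity trend. Without the a-labelled haploid, 10 members rose at 7% and 2 at 3%. Without the alpha-labelled haploid 8 fell at 3%, and without the diploid 5 fell from 3% to 7%. Changes of sign in the mean of the strains are listed only where the reported or the alternative fit called the change. Those called in neither fit are left out. The listed changes were, with quantile normalization, PEX32 -0.27 (7% against 0%), PEX7 -0.038 (7% against 0%), PEX3 -0.095 (7% against 0%), POT1 -0.028 (7% against 0%), ECI1 -0.074 (7% against 0%), SPS19 -0.029 (7% against 0%); with median centring, PEX32 -0.17 (7% against 0%), PEX7 -0.057 (7% against 0%), PEX3 -0.021 (7% against 0%), PEX31 -0.16 (7% against 0%), ECI1 -0.000247 (7% against 0%); without the alpha-labelled haploid, PXA2 0.24 (7% against 0%), PEX14 0.033 (3% against 0%); and without the diploid, PXA2 -0.052 (3% against 0%), PEX29 0.000568 (7% against 3%), PEX14 0.0065 (7% against 3%).

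Leaving out 1 array at a time gave counts of rises or higher members of 7 to 14 (the a-labelled haploid minus the alpha-labelled haploid at 3%), 0 to 1 (the diploid minus the haploids at 7%), 4 to 8 (the diploid against the haploids over all levels), 1 to 4 (the diploid against the haploids at 0%), 4 to 8 (the haploid strains at 0%), 0 to 1 (3% in the alpha-labelled haploid), 2 to 5 (3% in the diploid). For falls or lower members they were 9 to 14 (3% against 0% in the mean of the strains), 5 to 9 (the diploid against the haploids over all levels), 0 to 2 (the diploid against the haploids at 0%), 3 to 6 (the haploid strains over all levels), 8 to 15 (the haploid strains at 0%), 9 to 16 (3% in the alpha-labelled haploid), 3 to 8 (3% in the a-labelled haploid), 3 to 7 (3% in the diploid).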
